A study of Mus musculus with 4 samples.

Results

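Of 12920 distinct chromatin loops in granulosa cells of the mouse ovary, 3859 were called in all 4 libraries, and 773 of these constant loops had an end of a protein-coding gene within 2.5 kb of both anchors. An anchor is either of the stretches of a chromosome that a loop brings together. Calls of different lists were linked where both anchor midpoints lay within 20 kb, and each connected set was taken as 1 distinct loop. The members were therefore selected on being called in every library and on the gene annotation, RefSeq on GRCm38.p6, the assembly of mm10. They made up 20.03% of the constant loops (Wilson 95% interval 18.8% to 21.3%). A further 1686 constant loops had a gene end at 1 anchor and 1400 had none.

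How tightly a gene end sat at both anchors varied among the members. Loops were called in bins of 5, 10 or 25 kb, and a gene end counted if any list placed an anchor near it. The gene ends lay at both anchors in all 4 lists for 268 members, in 3 lists for 166, in 2 lists for 128 and in 1 list for 180. For the remaining 31 members the ends of the pair came from different lists. In the call with the smallest bins, 386 members (49.9%) had a gene end at both anchors. In 536 members (69.3%) an end lay inside both anchors and not only near them. The label of a loop joining a pair of gene ends thus held at the finest position for 386 members and with a looser position for the rest. Calls more than 20 kb apart were chained together in 120 members (15.5%).

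The libraries were made by Micro-C, which cuts chromatin with micrococcal nuclease and joins the pieces that lie close together in the nucleus, so that each joined pair counts as a contact. Granulosa cells were taken from punctured ovaries of 21-day-old mice whose strain and genotype the labels do not give. To make follicles grow, all mice were given eCG (equine chorionic gonadotropin, also named PMSG) at 5 IU, for 46 h by the sample characteristics and for 44 h by the protocol. The PMSG group was collected then, without hCG, as the 0 h point, and the hCG group 6 h after 5 IU of human chorionic gonadotropin, a stand-in for the natural rise of luteinizing hormone (LH). The groups held 2 libraries each, every one built from 2 to 3 technical replicates, and nothing in the labels says that the libraries came from separate mice. The p-values below therefore measure the spread between libraries, which may be technical. The lists held between 6533 and 8305 calls, with 272470 to 393852 contacts at the called pixels, and PMSG replicate 2 was the smallest in both. At the members, the libraries held 27823 to 33784 contacts. Loops do not measure expression, so the label of granulosa cells could not be checked against the level of marker genes.

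Many stable loops in mammals form where the ring-shaped cohesin complex, sliding along the chromosome, is held at sites bound by CTCF. Other contacts join active promoters to enhancers or to each other. Granulosa cells surround the oocyte, make oestradiol while the follicle grows, and turn to progesterone synthesis, matrix remodelling and luteal differentiation after the LH surge.

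Promoters are shown for 3 gene pairs: the pair with the highest contact ratio, the highest-ratio pair after it with a listed gene start at each anchor, and the pair at Cyp11a1, whose enzyme makes pregnenolone from cholesterol as the first step of steroid synthesis. The last was chosen for its role after its values were seen. Each sequence is from RefSeq on GRCm38.p6 and runs 5′ to 3′ on the gene's strand from 250 bases before the start to 50 bases after it. Capitals mark matches, on either strand, to the CCAAT box (CCAAT), the GC box (GGGCGG) or the CTCF core (AGGGGGC). Where the last 2 overlap, both are in capitals. A match is a description of the letters and not a bound site. Olfr418 (an olfactory receptor, plus strand, chr1:173269897-173270196) and Mptx2 (a mucosal pentraxin, minus strand, chr1:173277707-173278006) share the left anchor of the highest-ratio loop, and Mptx1 (also a pentraxin, plus strand, chr1:174330268-174330567) lies at the right anchor.
Olfr418: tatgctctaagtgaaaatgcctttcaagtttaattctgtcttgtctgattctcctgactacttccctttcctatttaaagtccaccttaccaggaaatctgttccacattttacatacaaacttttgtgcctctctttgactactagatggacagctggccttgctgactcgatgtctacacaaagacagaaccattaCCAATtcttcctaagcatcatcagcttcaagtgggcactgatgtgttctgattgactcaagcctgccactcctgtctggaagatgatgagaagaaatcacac
Mptx2: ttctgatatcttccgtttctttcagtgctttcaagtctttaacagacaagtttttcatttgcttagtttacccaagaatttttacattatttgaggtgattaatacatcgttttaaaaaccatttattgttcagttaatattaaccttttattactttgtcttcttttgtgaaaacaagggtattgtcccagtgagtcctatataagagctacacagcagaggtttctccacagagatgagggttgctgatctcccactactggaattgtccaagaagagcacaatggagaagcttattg
Mptx1: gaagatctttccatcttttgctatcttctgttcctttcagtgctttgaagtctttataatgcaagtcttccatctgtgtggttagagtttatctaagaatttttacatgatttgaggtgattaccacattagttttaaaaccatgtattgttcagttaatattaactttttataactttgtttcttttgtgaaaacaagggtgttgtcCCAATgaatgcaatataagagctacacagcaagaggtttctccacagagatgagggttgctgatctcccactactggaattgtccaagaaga

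The promoters of Mptx2 and Mptx1 resembled each other. A global alignment gave 252 identical bases in 323 columns (78.0%), with an identical run of 61 bases that takes in the start sites. Olfr418 and Mptx1, aligned the same way, were identical at 49.8% of columns with a longest run of 8 bases. In the same alignment the promoters of the other printed pairs were identical at 44.9% (1600014C23Rik and Vegfa) and 45.5% (Sema7a and Cyp11a1), with longest runs of 8 and 9 bases.

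The second pair joined 1600014C23Rik (minus strand, chr17:45733795-45734094) to Vegfa (minus strand, chr17:46032328-46032627), which encodes a growth factor for blood vessels. The third joined Sema7a (a semaphorin, plus strand, chr9:57939862-57940161) to Cyp11a1 (plus strand, chr9:57997774-57998073).
1600014C23Rik: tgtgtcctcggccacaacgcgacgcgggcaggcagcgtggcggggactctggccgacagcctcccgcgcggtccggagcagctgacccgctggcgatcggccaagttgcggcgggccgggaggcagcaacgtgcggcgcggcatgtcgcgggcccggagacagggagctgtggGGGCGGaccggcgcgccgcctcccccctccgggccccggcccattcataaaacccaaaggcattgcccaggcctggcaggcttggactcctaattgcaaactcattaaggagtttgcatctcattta
Vegfa: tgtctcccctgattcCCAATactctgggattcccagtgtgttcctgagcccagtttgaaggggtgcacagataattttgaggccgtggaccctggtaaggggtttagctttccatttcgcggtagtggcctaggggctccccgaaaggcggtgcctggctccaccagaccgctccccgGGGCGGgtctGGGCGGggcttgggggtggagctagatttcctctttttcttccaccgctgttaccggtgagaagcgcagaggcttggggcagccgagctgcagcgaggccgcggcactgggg
Sema7a: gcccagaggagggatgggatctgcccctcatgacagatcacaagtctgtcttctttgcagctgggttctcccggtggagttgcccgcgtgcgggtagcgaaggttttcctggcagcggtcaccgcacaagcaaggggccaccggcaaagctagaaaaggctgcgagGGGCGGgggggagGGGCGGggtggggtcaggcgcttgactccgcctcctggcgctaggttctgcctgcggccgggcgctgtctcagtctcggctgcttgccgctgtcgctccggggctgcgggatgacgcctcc
Cyp11a1: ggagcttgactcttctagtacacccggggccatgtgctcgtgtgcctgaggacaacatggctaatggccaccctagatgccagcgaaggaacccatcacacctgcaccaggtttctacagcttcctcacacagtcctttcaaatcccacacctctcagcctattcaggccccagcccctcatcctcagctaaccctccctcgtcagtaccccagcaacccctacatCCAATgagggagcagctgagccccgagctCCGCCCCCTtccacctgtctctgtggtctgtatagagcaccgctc

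The Mptx promoters were poor in G and C (35% in both) and held no GC box, as did that of Olfr418 (41.7%). The other 4 were at 58.3% (Cyp11a1) to 68.7% (1600014C23Rik) and held 1 or 2 GC boxes each. Of these 7 promoters the CTCF core was found only in that of Cyp11a1, where it overlaps the GC box. Across all gene starts of the table that lay at a member's anchor (615 promoters), 17.4% held the CTCF core (Wilson 95% interval 14.6% to 20.6%). The share was 17.3% of 590 starts at anchors of constant loops with a gene end at 1 anchor and 13.0% of all 21020 promoters. The median share of G and C was 58.3% in starts at member anchors, below the 60.3% at the 1-anchor loops and above the 56.7% of all promoters. The GC box was found in 53.2% of starts at member anchors, in 58.1% at the 1-anchor loops and in 46.6% of all promoters. The cAMP response element (TGACGTCA), the site of the factor through which cAMP acts downstream of gonadotropin receptors, was found in 4.39% of starts at member anchors (27 promoters), in 2.71% at the 1-anchor loops and in 2.26% of all promoters. The ETS motif (CCGGAAGT) was found in 6.34%, 2.88% and 5.20%, in the same order. The motifs of YY1 (AAGATGGCG), a factor known for bridging promoters, and ZNF143 (ACTACAATT) were rare, at 2.44% and 0.488% of starts at member anchors against 1.84% and 0.514% of all promoters. NRF1 (GCGCATGCG) stood at 2.11% against 2.36%, CCAAT at 38.0% against 38.5% and the E-box (CACGTG) at 7.32% against 7.91%. Whether these shares follow from base composition was not tested.

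The gene pairs were mostly of unrelated genes, and starts and far ends were both common at the anchors. Different genes alone were joined in 697 members, and in 76 (9.83%) the anchors held both ends of 1 gene. The members touched 2101 genes, 9.71% of the 21631 protein-coding genes placed, and 1960 of these genes were at 1 member only. A single gene lay at each anchor in 321 members. No protein-coding gene lay between the anchors in 372 members (48.1%), and the largest number between was 43. The kind of every gene end was known for 463 members. Of these, 177 (38.2%) had a start at both anchors, 209 (45.1%) had a start at 1 anchor only, and 77 (16.6%) joined far ends alone. In the 386 members placed in the smallest bins, the same shares among 243 with known ends were 27.6%, 52.3% and 20.2%. These shares count only ends near the smallest-bin call, while those above count ends near any call of the loop. Fewer ends per anchor leave fewer starts, so the values cannot show whether tighter positions hold fewer starts. Of 171 start-to-start pairs with clear strands, 84 pointed the same way, 45 away from each other and 42 towards each other.

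The ratio of observed contacts to those expected from the surrounding ring of pixels (the donut) is used here as the strength of a loop. Members with far ends only had median ratios of 4.90 and 4.68 before hCG and 5.31 and 5.31 after it. Members with a start at both anchors, which could hold far ends as well, had 4.10 and 3.82, and 4.36 and 4.30. The members with starts were thus lower in each of the 4 libraries, with median spans of 115 kb against 135 kb. Neither bin size nor the number of ends per anchor was held equal here. Members joining both ends of 1 gene had medians of 3.86, 3.95, 4.08 and 4.24.

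Gene-end loops were short. The median distance between anchor midpoints was 125 kb in each of the 4 libraries, and in the smallest-bin calls the quartiles were 80 and 210 kb, over a range of 35 to 1610 kb. Constant loops without gene ends had a median of 225 kb in both groups and reached 3615 kb. The difference of medians was -100 kb in every library, which is the same sign in 4 of 4 (exact sign-flip permutation test over libraries, two-sided, p = 0.125, the smallest that 4 libraries allow). Wider bins reach more gene ends, so the classes were also compared within a bin size. With bins of 5 kb alone the medians differed by -78.8 kb, with 10 kb by -130 kb and with 25 kb by -194 kb. At loops with a gene end at 1 anchor the median span lay between, and members were shorter than these by 42.5 kb on average.

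**Figure D1:**
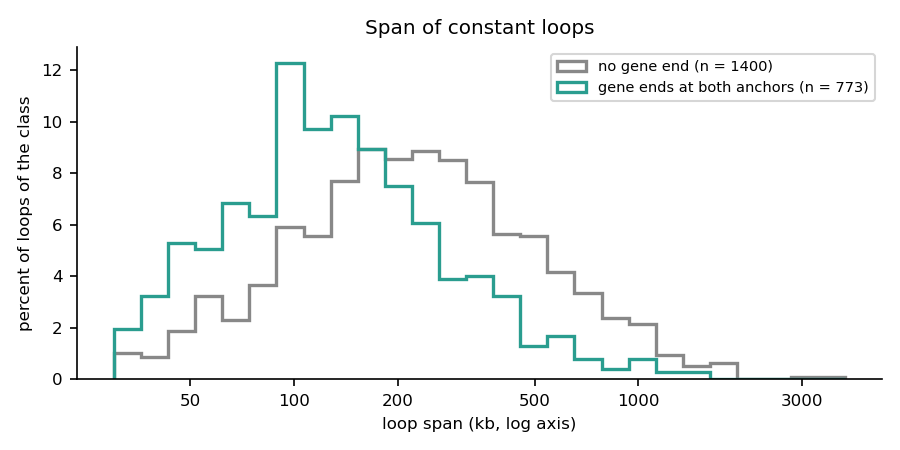
Span of constant loops, in percent of the loops of each class, on a log axis in kb. The 773 members with gene ends at both anchors (green) peak near 100 kb, to the left of the 1400 loops with no gene end (grey), whose median is 225 kb.

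A gene end at the right anchor of a constant loop was more frequent where the left anchor also had one. In loops placed in 5 kb bins, the right anchor had a gene end in 33.7% (252 of 748) where the left had one and in 27.1% (541 of 2000) where it had none. In 10 kb bins the shares were 32.5% (108 of 332) and 25.9% (179 of 691). In 25 kb bins, with 88 loops, they were 66.7% and 40.8%. The Wilson 95% intervals did not overlap in 5 kb bins (30.4% to 37.2% against 25.1% to 29.0%) and overlapped in the wider bins. These intervals take the loops as independent, though some loops share genes. In 76 members the anchors held both ends of 1 gene, and such loops were not set apart in these shares. Neighbouring genes tend to lie in gene-rich stretches, and local gene density was not held equal in these shares. Among the chromosomes, members were from 12.3% (chromosome 10) to 27.5% (chromosome 17) of the constant loops. Loops with gene ends at both anchors were 20.7%, 22.8% and 25.3% of the distinct loops called in 1, 2 and 3 lists, against 20.03% of the constant loops.

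Taken over all spans, the members were weaker, relative to their surroundings, than constant loops without gene ends. The median ratio of members was 4.37 and 4.17 before hCG and 4.75 and 4.71 after it, and single values ran from 1.83 to 42.3. The mean over libraries was 4.50 ± 0.275 (SD, n = 4) for members and 6.06 ± 0.403 for loops without gene ends, a difference of -1.56 ± 0.349 that was negative in 4 of 4 libraries (exact sign-flip permutation test, two-sided, p = 0.125). Against loops with a gene end at 1 anchor the difference was -0.61, again in 4 of 4. At like spans it was -0.35, -0.26 and -0.17 in 5 kb bins, lower in 4 of 4 libraries each, and -0.07, -0.06 and -0.14 in 10 kb bins, lower in 4, 2 and 3 of 4 (spans up to 100, 100 to 200 and 200 to 400 kb). The ratio falls with the width of the bin and rises with the span, and both differ between the classes. Within 5 kb bins the difference from loops without gene ends was -1.18, within 10 kb bins -0.99 and within 25 kb bins -0.35. In 5 kb bins it was -0.43 for spans up to 100 kb, where 3 of 4 libraries were lower, -0.52 from 100 to 200 kb and -0.57 from 200 to 400 kb, where all 4 were lower. In 10 kb bins it was -0.14, -0.23 and -0.47 over the same spans, lower in 3, 3 and 4 of 4 libraries. In both bin sizes the difference was thus smaller at like spans than over all spans. The members called in 5 kb bins in all 4 lists, 142 loops, had medians of 5.76, 7.47, 7.14 and 6.85. The 427 such loops without gene ends had 6.75, 8.002, 8.61 and 7.91. Each value stood above the members' in its own library. The median spans were 75 to 80 kb for these members and 160 kb for these loops, so bin size was held equal here and span was not.

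**Figure D2:**
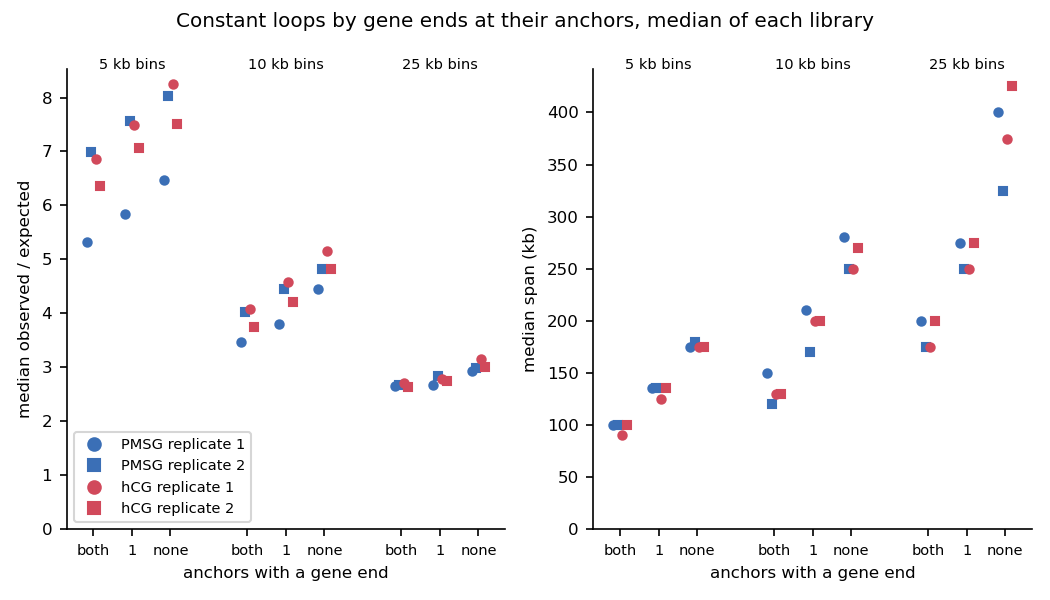
Median observed over expected contacts (left) and median span in kb (right) of constant loops with a gene end at both anchors, at 1 anchor or at none, by bin size of the call, with 1 point per library (blue PMSG, red hCG; circle replicate 1, square replicate 2). In 5 kb bins the members' medians lie between 5.33 and 6.99, each library's median is higher in loops with none, and members are the shortest class in every bin size.

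The gene pairs with the highest ratios were led by the pentraxin genes. The ranking used the lowest of the 4 libraries' ratios, so these values are a description. The loop from Mptx2 and Olfr418 (anchor chr1:173270001-173280000) to Mptx1 (anchor chr1:174330001-174340000) spanned 1060 kb over 25 genes and was called in 10 kb bins in every list. Before hCG it held 18 and 37 contacts, and after it 48 and 48. The ratios were 20.7 and 26.4, and 42.3 and 34.3. Both hCG values lay above both PMSG values, and the log2 difference of 0.65 (SE 0.23) did not pass the test (edgeR's quasi-likelihood test, adjusted p = 0.549). Its expected contacts were near 1 (0.871 to 1.40), so the ratio rests on a small expectation. The part that the likeness of the printed Mptx promoters has in the count was not tested.

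The next pairs lay closer together. Mtnr1a, a melatonin receptor, and F11, the precursor of a clotting protease, lay 170 kb apart on chromosome 8, with ratios of 10.3 and 16.6 (PMSG) and 16.3 and 14.3 (hCG), and the groups overlapped. Pfdn4, a subunit of the prefoldin chaperone, and Dok5, an adaptor of receptor tyrosine kinases, lay 350 kb apart with no gene between, at 12.3, 15.4, 10.5 and 12.3, where hCG replicate 1 alone was called in 10 kb bins. Snx10, a sorting nexin, and Skap2, an adaptor of Src kinases, had 9.95, 12.6, 12.5 and 10.2 and met at their far ends. These 3 pairs had no common order of the libraries.

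Sparc and Atox1, 55 kb apart on chromosome 11, were the shortest of the 12 highest-ratio pairs. Sparc encodes a secreted protein that binds collagen and Atox1 a copper chaperone. The loop joined their far ends with 49, 33, 37 and 64 contacts, and ratios of 8.97 and 10.2 in PMSG and 11.7 and 13.8 in hCG. The groups did not overlap, and the log2 difference of 0.46 (SE 0.21) had an adjusted p of 0.661 by edgeR's quasi-likelihood test. Rpl37a, a ribosomal protein gene, met the far ends of Igfbp2 and Igfbp5, whose products bind insulin-like growth factors, at 8.61, 9.47, 11.1 and 11.8. Here too both hCG values were above both PMSG values (log2 0.36, SE 0.26; edgeR's quasi-likelihood test, adjusted p = 0.865). The other 6 pairs of the 12 were Dpys with 9330182O14Rik, Ugt2b34 with Ugt2b5, Slc44a5 with Tyw3, Tmprss5 and Zw10 with Ttc12, Wnt9a with Zkscan17, and Ice1 with Adamts16. Their ratios lay between 8.34 (Ice1 and Adamts16, PMSG replicate 1) and 13.7 (Slc44a5 and Tyw3, hCG replicate 2).

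**Figure D3:**
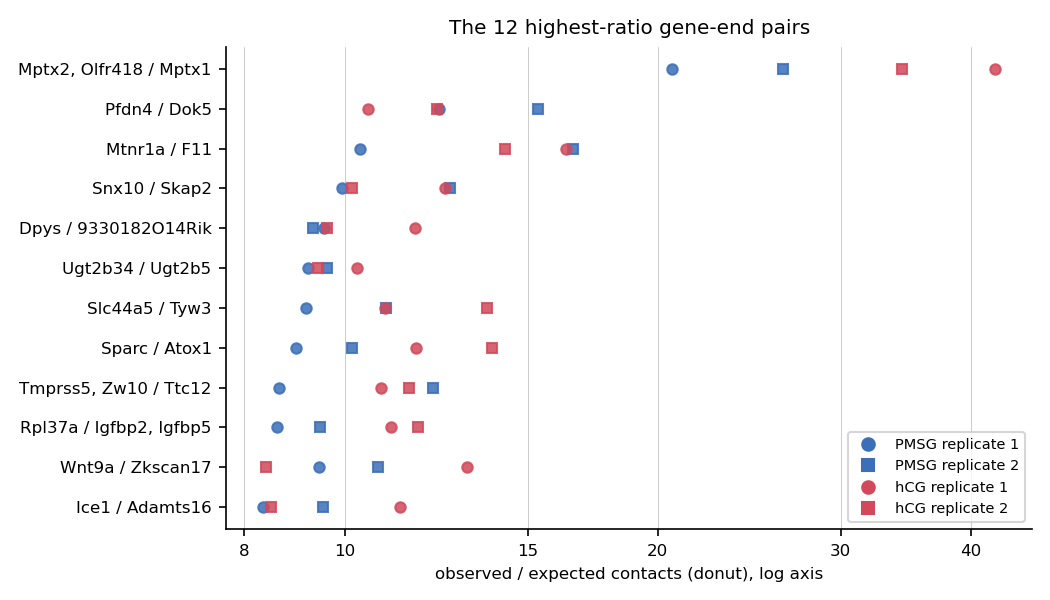
Observed over expected contacts (log axis) of the 12 members with the highest smallest ratio, with 1 point per library (blue PMSG, red hCG; circle replicate 1, square replicate 2). The Mptx pair stands apart at 20.7 to 42.3, and the other 11 pairs lie between 8.34 and 16.6 with the groups mostly mixed.

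Vegfa and 1600014C23Rik had ratios of 7.16 and 9.22 in PMSG and 10.98 and 11.5 in hCG, from 30, 13, 21 and 27 contacts in 5 kb bins over 295 kb with no gene between. The log2 difference was 0.55, and edgeR's quasi-likelihood test gave an adjusted p of 0.739. Vegfa belongs to the genes that ovulatory follicles are known to use for new vessels. Its loop was called before hCG as well as after it, which the selection required of every member.

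The extremes of span joined genes of many kinds. Among the longest members were Mmadhc with Rbm43 (1610 kb, chromosome 2) and Crbn with Setmar (1250 kb, chromosome 6). Crbn, the substrate receptor of a ubiquitin ligase, and Setmar had 8.86, 8.96 and 12.1 in 10 kb bins and 5.05 in the 25 kb bin of hCG replicate 1. The shortest members, at 35 kb, included a histone cluster on chromosome 13, where H2ac6, H2bc4, H4c3 and Hfe met H1f2 with ratios of 5.92, 8.26, 6.45 and 6.62. Rdx, which links actin to the cell membrane, was joined from start to far end over 35 kb with 2.89, 2.67, 3.25 and 2.60. The members with the most contacts summed over the libraries were mostly called in 25 kb bins, led in that sum by Rab3ip with Best3, Cct2 and Lrrc10 (207, 113, 136 and 172 contacts), at ratios of only 2.35, 2.38, 2.58 and 2.61. A large contact number was thus no sign of a high ratio.

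Genes with both ends in a loop included a pair of homeobox factors. Meis2 (chr2:115861264-116067537, minus strand) had its start and far end joined over 215 kb. The pixel held 37 and 14 contacts in PMSG and 37 and 47 in hCG, at ratios of 9.54 and 7.60, and 14.0 and 15.8. Both hCG values lay above both PMSG values, with a log2 difference of 0.74 (SE 0.24) that did not pass (edgeR's quasi-likelihood test, adjusted p = 0.505). Its relative Meis1 (chr11:18880428-19019651, minus strand) was joined end to end over 145 kb at 6.39, 9.36, 7.60 and 8.13, and the groups overlapped (log2 0.09, SE 0.30). Rnf150, of the RING finger family, spanned 220 kb at 8.50 and 8.26 before and 11.9 and 14.1 after hCG, and its log2 difference of 0.63 had an adjusted p of 0.680 by the same edgeR quasi-likelihood test. Irx3 and Irx5, neighbouring homeobox genes 570 kb apart with no gene between, were joined at 4.50, 5.81 and 5.62 in 10 kb bins and at 2.94 in a 25 kb bin in PMSG replicate 2. Of 28 developmental regulators listed, 12 were at constant loops and these 4 genes (14.3%) at members, where 17.7% and 9.71% of all protein-coding genes were.

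Genes of 1 family, by the letters of the symbol, met in 39 members (5.05%) of 35 families. Ugt2b34 and Ugt2b5, enzymes that add glucuronic acid to steroids and other small molecules, had even ratios of 9.22, 9.62, 10.3 and 9.43 over 255 kb. Gbp5 and Gbp3, interferon-induced GTPases, were joined start to start at 6.09 and 7.76 in PMSG and 9.36 and 9.31 in hCG. Wfdc8 and Eppin met Wfdc3, in a cluster of protease inhibitors, at 6.57 and 7.98, and 9.74 and 10.7. In both the groups did not overlap, and their adjusted p was 0.739 by edgeR's quasi-likelihood test. Scd3 and Scd2, stearoyl-CoA desaturases that make unsaturated fatty acids, had 5.96, 6.60, 5.15 and 9.08, without order. Serpina11 and Serpina9 met Serpina3n at 8.93, 12.9, 6.97 and 8.08, with hCG replicate 1 in a wider bin. Over all 39 the medians were 4.59, 4.56, 5.02 and 5.28, close to those of the members together.

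Genes of steroid synthesis and of the growing follicle were found among the gene ends, against a share of 9.71% of all protein-coding genes at members. Of 18 genes of steroid and cholesterol synthesis, 5 were at members: Star, Cyp11a1, Cyp17a1, Srebf2 and Fdx1. Cyp11a1 (chr9:57998024-58027031, plus strand) was joined to Sema7a over 55 kb, start to start, with 60, 31, 33 and 34 contacts in 5 kb bins. The ratios were 6.46 and 6.37 in PMSG and 7.48 and 6.17 in hCG, which overlap (log2 0.07, SE 0.22). A gene end was at both anchors in 1 list only, so this pair is placed loosely. Cyp17a1 (chr19:46667165-46673000), the androgen-forming enzyme of theca cells, was at a loop to the far end of As3mt with 5.60 and 5.30, and 7.24 and 8.36. Its hCG values were above its PMSG values (log2 0.52, SE 0.25; edgeR's quasi-likelihood test, adjusted p = 0.699). A second Cyp17a1 loop, to Cnnm2, had 5.12, 4.13, 3.66 and 5.55 over 5 and 10 kb bins. Star, whose protein brings cholesterol into mitochondria, was at an anchor with Bag4 and Lsm1 and met Fnta, Hgsnat, Hook3 and Pomk. The ratios were 3.22 and 3.11 in 10 kb bins (PMSG replicate 1 and hCG replicate 2) and 2.14 and 3.06 in 25 kb bins. In the smallest-bin call no gene end lay at the anchor of Star, so it too is placed loosely. Fdx1, the electron donor of Cyp11a1's enzyme, met Rdx at 4.31, 5.47 and 5.17 in 5 kb bins and 3.70 in the 10 kb bin of hCG replicate 2. No single list had a gene end at both anchors of the Fdx1 loop.

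Of 22 follicular granulosa genes, 6 were at members (Ccnd2, Nppc, Npr2, Igf1, Hsd17b1 and Acvr2a) and 11 at constant loops. Nppc encodes a peptide that keeps oocytes arrested in meiosis, and Npr2 its receptor. The Nppc loop to Dis3l2 had 7.95 and 8.39 in the libraries with 5 kb bins (PMSG replicate 2 and hCG replicate 1) and 3.43 and 3.67 in those with 10 kb bins. Npr2 and the olfactory receptor genes Olfr70 and Olfr71 had 4.55 and 7.62 in 5 kb bins and 3.84 and 3.14 in 10 kb bins. Acvr2a, an activin receptor, shared an anchor with Orc4. Its loop met Mbd5 at 7.16, 5.67 and 5.67 in 10 kb bins and 9.52 in the 5 kb bin of hCG replicate 2. Such values follow the bin size first, so they give no comparison between the groups. Presence in each list was set by the selection of members. Igf1, Ccnd2 and Hsd17b1 were at loops of 2.69 to 9.29, also over mixed bins. All 6 loops are placed loosely, since in the smallest-bin call none had a gene end at both anchors. The Acvr2a loop had none at either anchor there. Gene ends were at both anchors in 1 list for the loops of Nppc and Npr2 and in 2 lists for that of Acvr2a.

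Of 22 genes of the early LH response, 2 were at members (9.09%, against 9.71% of all protein-coding genes), Fosb and Rgs2. Fosb, an AP-1 factor, shared an anchor with Rtn2 and met Ercc1 over 45 kb at 5.38 and 8.30 before hCG and 5.29 and 8.41 after it, so that the replicates differed more than the groups. Rgs2, which shortens G protein signals, was joined to Uchl5 at 6.58, 8.87, 4.40 and 6.11, of which the 4.40 came from a 10 kb bin and the others from 5 kb bins. To its relative Rgs13 it was joined at 3.20 in a 10 kb bin and at 2.00, 2.35 and 2.20 in 25 kb bins. None of 14 genes of the cumulus matrix and follicle rupture, of 21 granulosa transcription factors or of 22 genes of TGF-beta, BMP and WNT signalling was at a member, and 4, 7 and 8 of them were at constant loops. Over all protein-coding genes the shares were 9.71% at members and 17.7% at constant loops. Of 19 cell cycle and replication genes, 4 were at members. Mcm5, part of the replicative helicase, met Tom1 over 35 kb at 5.76 and 6.30, and 7.07 and 7.42. Cdkn1a, the cell cycle inhibitor p21, met Srsf3 over 50 kb at 3.99 and 4.11, and 6.50 and 6.68, where the 4.11 alone came from a 10 kb bin. Pcna, the sliding clamp of DNA synthesis, shared an anchor with Tmem230 and met Slc23a2 at 4.84, 4.05, 5.91 and 3.70. In the smallest-bin call Tmem230 alone lay at that anchor, so Pcna is placed loosely. Ccnd2, a D-type cyclin, shared an anchor with Tigar and met D6Wsu163e at 6.50, 2.82, 3.27 and 9.29. Both loops were called over mixed bins, and their values had no order. Mcm5, the only one of the 4 in a single bin size, had a log2 difference of 0.30 (SE 0.22; edgeR's quasi-likelihood test, adjusted p = 0.865). Of 28 genes of ribosomal proteins and translation, 2 (Rpl4 and Rpl13a) were at members.

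Markers of other cells of the ovary were also at members: 3 of 10 oocyte genes (Zp3, Figla and Ddx4), 2 of 12 of theca, stroma and smooth muscle (Pdgfrb and Cyp17a1), 1 of 10 endothelial genes (Cdh5) and none of 9 leukocyte genes. Zp3, a protein of the egg coat, met Upk3b and Upk3bl at 4.97, 3.09, 5.42 and 7.65, of which the 3.09 came from a 10 kb bin. Cdh5, the cadherin of vessel walls, met Bean1 and Tk2 at 6.59, 5.84, 8.40 and 5.57, in 5 kb bins throughout. A gene end at a loop does not show that the gene is transcribed, and the share of other cells in the libraries was not tested.

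**Figure D4:**
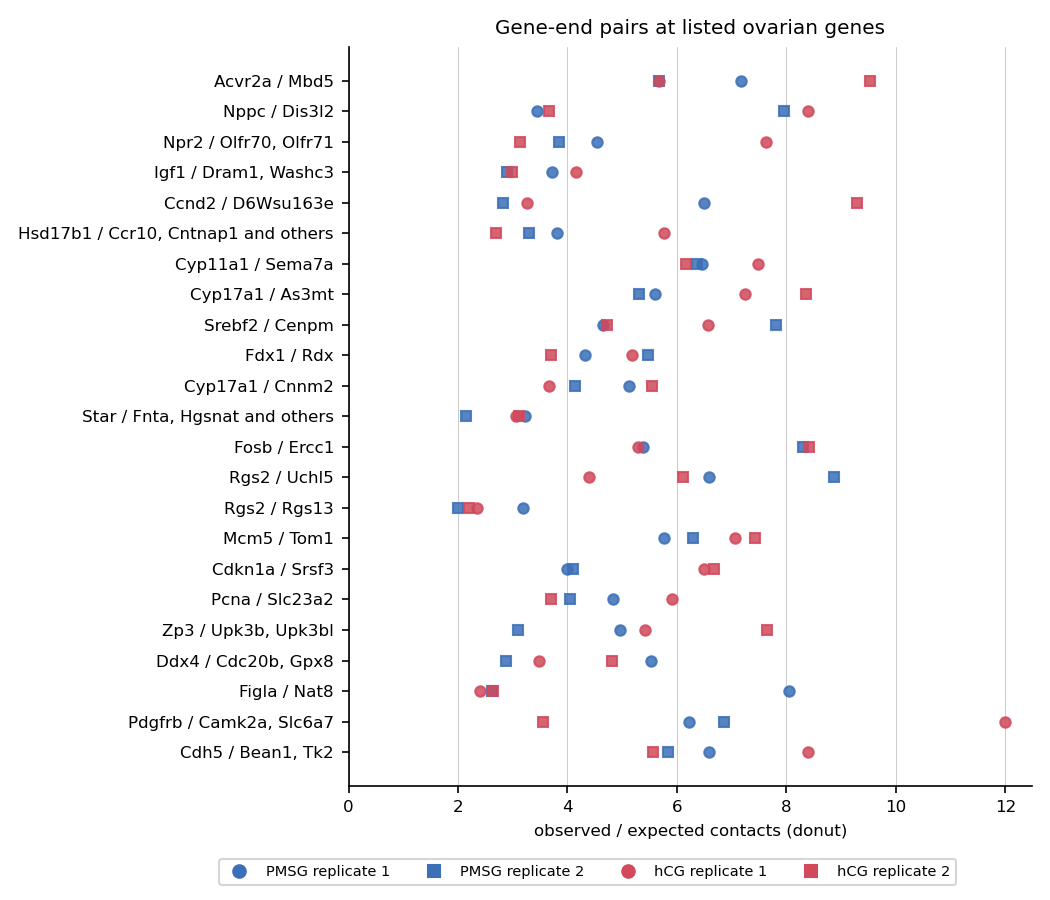
Observed over expected contacts of members with a gene of the ovarian lists at an anchor, labelled by the listed gene and its partner, with 1 point per library (blue PMSG, red hCG; circle replicate 1, square replicate 2). Wide scatter within a row, as for Figla at 2.39 to 8.04, occurs where libraries called the loop in different bins, while Cyp11a1, in 5 kb bins throughout, lies between 6.17 and 7.48.

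A few genes served several members. Bcl2l1, Gucy2g and Adgrf1 were each at 3, which no gene exceeded, and 587 members shared no gene with another. The start of Bcl2l1 (chr2:152758732-152833803, minus strand), the survival factor Bcl-xL, met Mcts2 at 5.45, 6.57, 6.94 and 7.24, its own far end at 3.28, 3.04, 2.64 and 3.13, and the defensin genes Defb25 and Defb36 at 6.41 in a 5 kb bin and 5.33, 4.11 and 4.40 in 10 kb bins. With a loop from the same defensin genes to H13 (4.14, 4.01, 3.88 and 5.34), they formed a chain of 4 members over 225 kb. The only other chain of 4 lay on chromosome 19 over 1270 kb, from the adrenergic receptor gene Adra2a through Gpam and Gucy2g to Vti1a, with lowest ratios of 2.21 to 3.03. Adgrf1, an adhesion G protein-coupled receptor, met its relative Adgrf5 from its far end at 5.81, 5.91, 3.96 and 7.21 and from its start at 6.95, 6.92, 4.15 and 6.62. In both, the low value of hCG replicate 1 came from a 10 kb bin and the others from 5 kb bins. In all, 84 chains of at least 2 members were linked through shared genes.

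The last comparison asked whether the strength of these loops differed between collection before hCG and 6 h after it. The mean of the libraries' medians was 4.27 ± 0.141 (SD, n = 2) in PMSG and 4.73 ± 0.0247 in hCG, a difference of 0.455 (exact permutation test over libraries, two-sided, p = 0.333, the smallest that 2 against 2 allows). The other constant loops moved by like amounts, 0.410 with a gene end at 1 anchor and 0.507 with none. Libraries also differed in the bins of their calls: 418, 231, 310 and 363 members were in 5 kb bins. Within 5 kb bins the difference was 0.454, within 10 kb bins 0.165 and within 25 kb bins 0.007, and in none did the groups separate (exact permutation p = 1, 0.667 and 1). The median span differed by 0 kb.

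Single loops were tested where all 4 lists had called them in 1 bin size, which held for 211 members and 1351 constant loops. None of the 211 passed an adjusted p of 0.05 in edgeR's quasi-likelihood test, as none of the 1351 did (0% called), and 15 members and 92 of all loops had an unadjusted p under 0.05. DESeq2 also called 0, with 1 member and 5 loops at an unadjusted p under 0.05. The median log2 difference was 0.14 for the members and 0.15 for all loops tested. It rests on single libraries: without PMSG replicate 1 it was -0.02 for the members, and without PMSG replicate 2 it was 0.27 (0.26 for all loops). Both hCG ratios lay above both PMSG ratios in 54 members (25.6%), against 27.5% of all loops, and below them in 12 (5.69%), against 6.96%. The members' shares were near the background in both directions. Between libraries, log2 ratios of the 211 members correlated at 0.839 to 0.877, and at 0.857 and 0.876 within PMSG and within hCG. The points share their bin sizes, but only 63 of the 211 members were called at identical positions in all 4 lists. Values across the groups, which made up both ends of that range, thus lay around those within a group.

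**Figure D5:**
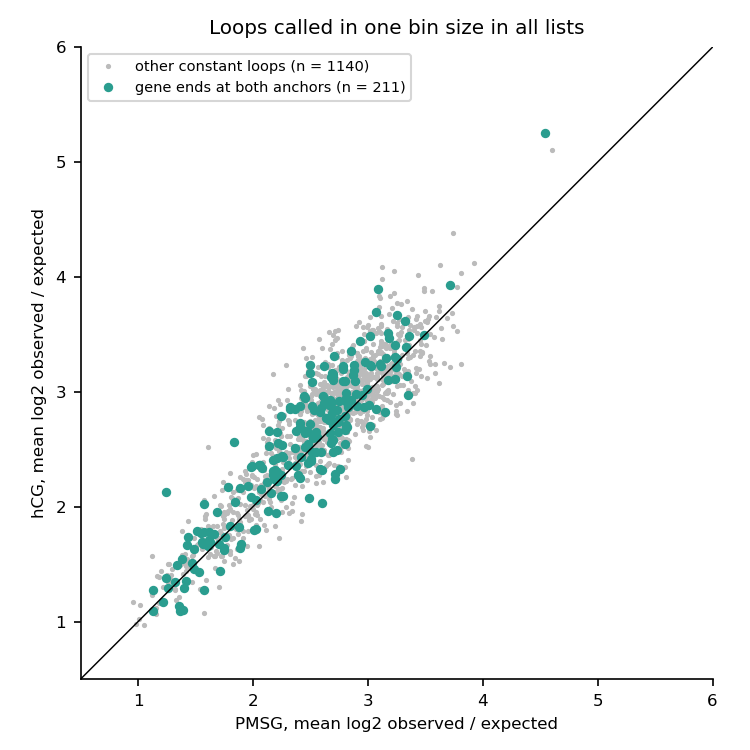
Mean log2 observed over expected contacts in hCG (vertical) against PMSG (horizontal) for loops called in 1 bin size in all lists, with 211 members in green, 1140 other constant loops in grey and the line of equal values. Members follow the line, and the median log2 difference by edgeR was 0.14 for them and 0.15 for all loops tested. Beyond the axes lies 1 other loop.

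The smallest p among the members was at the apoptosis inhibitor genes. Tmem123 met Birc2 and Birc3 over 50 kb on chromosome 9 with 49, 30, 51 and 39 contacts in 10 kb bins. The pair is placed loosely: in the smallest-bin call only Birc2 lay at an anchor, and 3 lists had a gene end at both anchors. The ratios were 2.22 and 2.51 in PMSG and 4.90 and 3.91 in hCG, and the groups did not overlap. The log2 difference was 0.92 (SE 0.22; edgeR's quasi-likelihood test, adjusted p = 0.164). Without PMSG replicate 2, which leaves 1 PMSG library, the log2 difference of this loop was 0.99. In the same setting the 35 kb loop of Fam221b and Tmem8b with Olfr71 had 1.19. Its ratios were 2.55, 4.99, 6.23 and 5.57. With all 4 libraries its log2 difference was 0.89 (SE 0.30, adjusted p = 0.505 by edgeR's quasi-likelihood test). Ankdd1a with Pif1 and Plekho2 followed Meis2 in order of p, with 5.10 and 6.24, and 7.70 and 11.5 (log2 0.82, SE 0.27, adjusted p = 0.505 by edgeR's quasi-likelihood test).

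The loops nearest the border of the 2.5 kb window show what the rule kept and left out. Just inside were Tmco5 with Spred1 (gene end at 2495 bases; 7.13, 8.71, 8.51 and 10.8), Wipi2 with Slc29a4 (2490 bases; 5.08, 5.41, 4.51 and 5.20) and Gprc5a with Hebp1 (2482 bases; 4.64, 6.85, 7.20 and 6.04). Just outside were a loop at Plxnb1 whose other anchor was 2505 bases from a gene end (5.99, 8.11, 7.31 and 9.32), 1 at Kcnn3 (2507 bases; 2.70, 3.26, 2.73 and 2.54) and 1 at Rpl19 and Stac2 (2554 bases; 6.70, 7.45, 6.66 and 6.74). The ratios inside, 4.51 to 10.8, and outside, 2.54 to 9.32, overlapped.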

How the data were processed

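Micro-C loops of 4 granulosa cell libraries, grouped by title as PMSG and hCG, were read from 1 list of loops per library. Per the file headers the lists were written by juicer_tools 1.22.01, from reads handled with BWA and Juicer on mm10 (submitters' processing notes). Calling settings, not given in the sources used here, could move the calls. The deposited lists hold the observed contact count of each pixel, not normalized. They also hold, per the file headers, the expected contact signal from 4 neighbourhoods and the FDR of each as a q-value, which the authors' lists keep below 0.1. The deposited score, the number of pixels collapsed into a call, was not used in any comparison. Pixels hold few contacts, which can include PCR copies, so single ratios are imprecise. The Wilson intervals are for counts of loops or promoters and hold no error of the contacts.

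Members and gene lists were chosen with earlier results of these data known. Each library's value for a distinct loop is its call in the smallest bins. Gene ends on chromosomes 1 to 19 and X came from the RefSeq table, and strands, known for 17274 of 21631 genes, from its promoter table. A start is a gene's 5′ end and a far end its 3′ end. No exons or introns were used here. Named loops were the 12 of highest smallest ratio, the extremes of span and contacts, those at list genes, same-family and same-gene loops, the smallest p, the genes at most members and the edge of the window. A loop among the longest is not reported here. Promoters were to come from the 3 highest-ratio of the 12 with a start at both anchors. Only the Mptx pair had table starts within the window there, so the rule was widened to all members, and its next pair, Nuf2 with Ccdc190, is not printed. Promoters were aligned globally (match 1, mismatch -1, gap -2).

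The test of strength used edgeR 4.0.16 (quasi-likelihood, log donut expectation as offset, Benjamini-Hochberg adjustment) in R 4.3.3, with DESeq2 1.42.0 as an alternative, and tested on simulated data. Other steps used Python 3.11.15 and scipy 1.17.1. Alternatives were match distances of 10 and 50 kb, gene windows of 0 and 5 kb, starts only, an FDR of 0.01, no 25 kb bins, other expectations and scalings, a minimum mean of 30 contacts, a replicate block and leaving out each library. Comparisons at like bins and spans, and of tighter members, were added after seeing the data.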

Additional observations from a re-analysis of the deposited data

How the results depend on the processing

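The number of members depends on how a gene end is matched. It was 572 with a match distance of 10 kb and 1020 with 50 kb, 536 with gene ends inside the anchors and 961 within 5 kb. It fell to 269 when each list had to have a gene end at both anchors, to 244 with gene starts only, to 403 with every FDR below 0.01 and to 474 without 25 kb bins. Leaving out 1 library gave 753 to 930. The hCG minus PMSG difference of median ratios stayed positive in the 8 alternatives run (0.255 with the largest of the 4 expectations, 0.355 to 0.555 with 1 library left out), and the span difference stayed 0 kb. The ratio of members minus loops without gene ends stayed negative in all 17 alternatives, from -1.70 to -1.43 with 1 library left out, -0.95 with the largest expectation, and nearest to 0 in 10 kb bins up to 100 kb of span (-0.14). The span difference stayed at -100 kb with 1 library left out. Leaving out 1 library gave 0 to 2 called members, the 2 without PMSG replicate 2, and the other planned settings gave 0. TMM scaling moved the median log2 difference of members from 0.14 to 0.00013. With the replicate number as a block 0 members were called (smallest adjusted p = 0.234 by edgeR's quasi-likelihood test). Deviations of same-numbered libraries correlated at -0.00884. A shift common to all loops of a library does not enter this value, and pixels hold few contacts. The value therefore cannot decide whether same-numbered libraries were paired. Depth limits single loops: the members' median pixel held 28 to 33 contacts, and 211 of the 773 members were called in 1 bin size and could be tested without mixing bins.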

Other observations

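Some genes at 2 members were picked after their values were seen, for what their products do, and are given as values only. The far end of Fas, a death receptor that the ovary is known to use in atresia, met Ch25h and Lipa, a pair of genes of cholesterol handling, with observed over expected ratios of 3.25 and 3.46 in PMSG and 5.39 and 5.23 in hCG, where hCG replicate 2 was called in 5 kb bins and the other libraries in 10 kb bins. Fas also met Ifit1 and Ifit1bl2, interferon-induced genes, at 4.38, 3.94, 5.49 and 3.02. Fgf2, a growth factor, was joined from start to far end, together with Bbs12 at the start and Nudt6 and Spata5 at the far end, at 4.10, 3.38, 3.00 and 3.40 in 10 kb bins, with a log2 difference of -0.24 (adjusted p = 0.893 by edgeR's quasi-likelihood test). Its far end met Il21 at 2.76, 3.25, 5.34 and 3.09, of which the 5.34 in hCG replicate 1 came from a narrower bin.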
